A study of Homo sapiens with 6 samples.

Results

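The values described here are those of 10 genes of cytokine signalling in PC9 cells, a non-small cell lung cancer line with an activating EGFR mutation, and in the drug-tolerant persisters (DTPs) that remain after long exposure to erlotinib, an inhibitor of the EGFR kinase. The genes were taken by name: the interleukin-1 family ligands IL1A, IL1B and IL18, the antagonist IL1RN, the receptors IL1R1 and IL1RL1, the gp130 ligands IL6, IL11 and LIF, and IL32. Every probe set that the array annotation assigned to exactly 1 of these genes was used, which gave 21 probe sets among 54613 and 10 genes among 19775. A probe set is a group of short probes that together read a transcript on the Affymetrix Human Genome U133 Plus 2.0 array.

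RNA came from 3 parental cultures in vehicle (DMSO) and 3 DTP cultures in 2 µM erlotinib, one array each, and all 6 carried a stably integrated GFP vector. By the protocol in the labels, parental cells were at 100% confluency when harvested on day 3, whereas erlotinib was started at 80% confluency and DTPs were taken on day 10 after 9 days of drug. The design text of the series, like the methods, instead gives both groups 9 days of vehicle or drug, and which of these holds is not settled here. The drug and, under the protocol, the days in culture and the density cannot be told apart. The question was how the mRNA of these survivors differs from that of the population they came from.

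Interleukin-1α and interleukin-1β are inflammatory cytokines that both bind the receptor IL1R1, which then recruits the co-receptor IL1RAP and the adaptor MYD88 and activates NF-κB. The product of IL1RN occupies the same receptor without signalling. IL1RL1, also called ST2, is the receptor of interleukin-33 and is made as a membrane form and as a shorter soluble form that traps the ligand. Interleukin-18 belongs to the same family and, like interleukin-1β, is cut to its active form by caspase-1. IL6, IL11 and LIF signal through receptors that share the subunit gp130 and activate STAT3. Epithelial cells and carcinomas make many of these molecules themselves.

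The 10 genes were called both ways. In DTPs IL32, IL6, IL18 and IL1R1 were called higher, IL1RL1, IL1A and IL1B were called lower, and IL1RN, IL11 and LIF were called neither. A call required an adjusted p under 0.05 from limma, with Benjamini-Hochberg adjustment over all 19775 genes, and a fold over 1.5. Thus 7 of the 10 genes were called, against 14.2% of all genes, with 4 higher (8.08% of all genes) and 3 lower (6.13%). The 10 were chosen with earlier results of these data known. The counts and medians given here therefore describe these genes and are no test of the group. The adjusted p alone was passed by all 10, IL11 and LIF not under every alternative, as it was by 44.5% of genes, and the 3 DTP and 3 parental values did not overlap in any of the 10, as was so for 53.7% of genes. Of the 21 probe sets, 4 were called higher (7.56% of all probe sets), 6 lower (4.93%) and 11 neither, so that 10 were called against 12.5% of all. The split of calls moved with the scale: 56.9% of called genes were higher, against 69.9% with arrays centred on ribosomal protein genes and 74.2% with spike-ins, where 5 of the 10 genes were called higher and 3 lower. The median log2 fold change of the 10 was 0.12 and that of all genes -0.05, while the median absolute value was 0.98 against 0.17. In a bulk culture, fewer cells that make a transcript and less of it per cell cannot be told apart, so rose and fell compare group means.

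**Figure D1:**
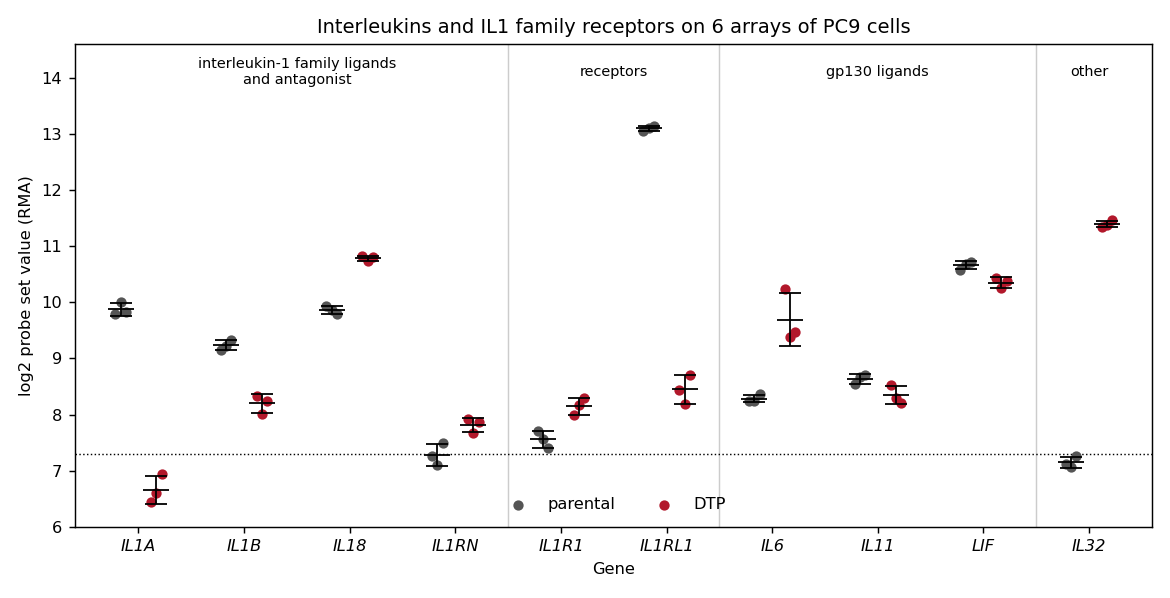
Log2 values of the 10 genes (horizontal axis, grouped by role) on each array, with parental cultures in grey and DTPs in red. Each point is an array, black marks give the group mean with its SD (n = 3), and the dotted line is the median of all probe sets (7.29). Each gene is read by the probe set taken for it, so heights compare groups within a gene and not genes with each other. The groups lie far apart for IL1RL1, IL32 and IL1A and close together for IL11 and LIF.

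These values come without a detection call, and even a probe set that binds almost no target has one. The 15 measured leukocyte markers had gene means of 4.81 to 9.05 and PTPRC, which marks all leukocytes, stood at 5.36 in parental cells and 5.32 in DTPs. None of the 15 was called (0 higher, 0 lower), and their summed level on a log2 scale ran from 11.12 to 11.14 in parental arrays and from 11.10 to 11.24 in DTP arrays. Of 14 fibroblast and endothelial markers, COL1A1 was called higher (log2 fold change 2.67) and PECAM1 lower (-0.69). The other 12 were called neither, among them COL1A2 (-0.26), COL3A1 (0.13), DCN (0.07), PDGFRA (-0.12), PDGFRB (-0.07) and FAP (-0.06). The summed level ran from 11.50 to 11.65 in parental and from 12.06 to 12.15 in DTP arrays. It adds unlogged values, so COL1A1 weighs most in DTPs (mean 11.11). Any part of such cells in the changes below was not tested. Of 11 epithelial markers, 10 lay above the median of all probe sets in at least 1 group, with EPCAM at 13.76 in parental cells and 13.57 in DTPs, while KRT7 was called higher and CLDN7 lower. Another 7 genes of blood, glia and neurons, listed as a guide to values with little target, had means from 6.92 to 10.32 with a median of 8.04, so a value near 8 says little about whether a gene is expressed. MBP, the highest of the 7, was called lower.

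IL1RL1 had the third largest fall of all genes (rank 3). Its log2 values were 13.05, 13.10 and 13.13 in parental cultures and 8.45, 8.20 and 8.71 in DTPs. The parental arrays were thus tightly grouped at a high level, and every DTP array lay far below them. The log2 fold change was -4.65 ± 0.11 (SE, n = 3 per group, limma adjusted p = 8.4e-12), a level 25.03-fold lower in DTPs. These values come from probe set 207526_s_at, whose reference sequence is the RefSeq transcript of the soluble form. The other 3 probe sets of IL1RL1 gave smaller differences. Probe set 234066_at went from 10.19 ± 0.17 to 7.85 ± 0.03 (SD, n = 3 each), a log2 fold change of -2.34, and 242809_at from 10.19 ± 0.07 to 8.24 ± 0.17, a log2 fold change of -1.95, and both were called lower. The fourth, 210442_at, stood at 8.17 ± 0.15 in parental cells and 8.04 ± 0.06 in DTPs and was called neither (log2 difference -0.13, limma adjusted p = 0.26 over probe sets). Its sign turned to 0.02 when arrays were centred on hybridization spike-ins.

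Within each array, 242809_at minus 207526_s_at was -2.94, -2.88 and -2.91 in parental cultures and -0.14, 0.17 and -0.65 in DTPs. The log2 changes read by these probe sets therefore differed, by 2.70, and the groups did not overlap (two-sided exact permutation p = 0.10, the smallest that 3 against 3 arrays can give). For 210442_at minus 207526_s_at the difference was 4.52 (exact permutation p = 0.10). All 4 probe sets had DTP means from 7.85 to 8.45, near the median of 8.04 of the 7 blood, glia and neuron genes. Little target may be left there, so the falls may be understated, and a probe set with a lower parental level had less room to fall. Which form of the receptor each probe set reads was not analysed, as no probe positions were used here. With the mean over all 4 probe sets IL1RL1 was still called lower, with a log2 fold change of -2.27.

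RefSeq gives IL1RL1 transcripts with 2 starts on the plus strand of chromosome 2 (build GRCh38.p14), and the 250 bases before each are shown because the gene had the largest fall of the 10. The window of the distal start is chr2:102311313-102311562 and that of the proximal start chr2:102337007-102337256. Capitals here and below mark matches on either strand to any of 6 motifs, namely AP-1 (TGACTCA or TGAGTCA), NF-κB (by its usual consensus of 10 letters), CRE (TGACGTCA), C/EBP (TTNNGNAA), STAT (TTCNNNGAA) and the TATA box (TATAAA).
IL1RL1 distal start: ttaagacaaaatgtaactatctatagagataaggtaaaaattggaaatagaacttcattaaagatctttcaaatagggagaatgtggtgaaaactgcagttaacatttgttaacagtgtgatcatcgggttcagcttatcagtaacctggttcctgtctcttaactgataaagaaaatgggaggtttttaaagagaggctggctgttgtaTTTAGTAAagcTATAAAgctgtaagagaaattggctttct
IL1RL1 proximal start: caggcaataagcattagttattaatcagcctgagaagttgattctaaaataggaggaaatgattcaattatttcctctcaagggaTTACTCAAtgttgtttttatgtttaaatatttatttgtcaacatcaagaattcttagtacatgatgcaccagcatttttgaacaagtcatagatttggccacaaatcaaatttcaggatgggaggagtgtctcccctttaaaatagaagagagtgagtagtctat
The distal window held a TATA box 29 to 24 bases before the start and a C/EBP match 40 to 33 bases before it, and the proximal window held a C/EBP match alone. Among 35116 windows of the same length, 10.7% held the TATA box and 33.2% the C/EBP motif. A match here is a description of the sequence.

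IL1R1, the receptor that carries the interleukin-1 signal, moved the other way by a small amount. Its log2 values were 7.70, 7.56 and 7.41 in parental cultures and 7.99, 8.16 and 8.29 in DTPs. The groups did not overlap, though both lay within the range of the 7 blood, glia and neuron genes. The log2 fold change was 0.59 ± 0.09 (SE, limma adjusted p = 2.0e-04), a 1.505-fold difference that only just exceeded the fold minimum. The call was lost, with the adjusted p still under 0.05, without parental replicate 3 (log2 fold change 0.52), DTP replicate 2 (0.58) or DTP replicate 3 (0.52), with array weights (0.55) and with the mean of its 2 probe sets (0.42). Its other probe set, 215561_s_at, stood at 6.07 ± 0.21 in parental cells and 6.31 ± 0.05 in DTPs and did not pass (limma adjusted p = 0.071 over probe sets).

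**Figure D2:**
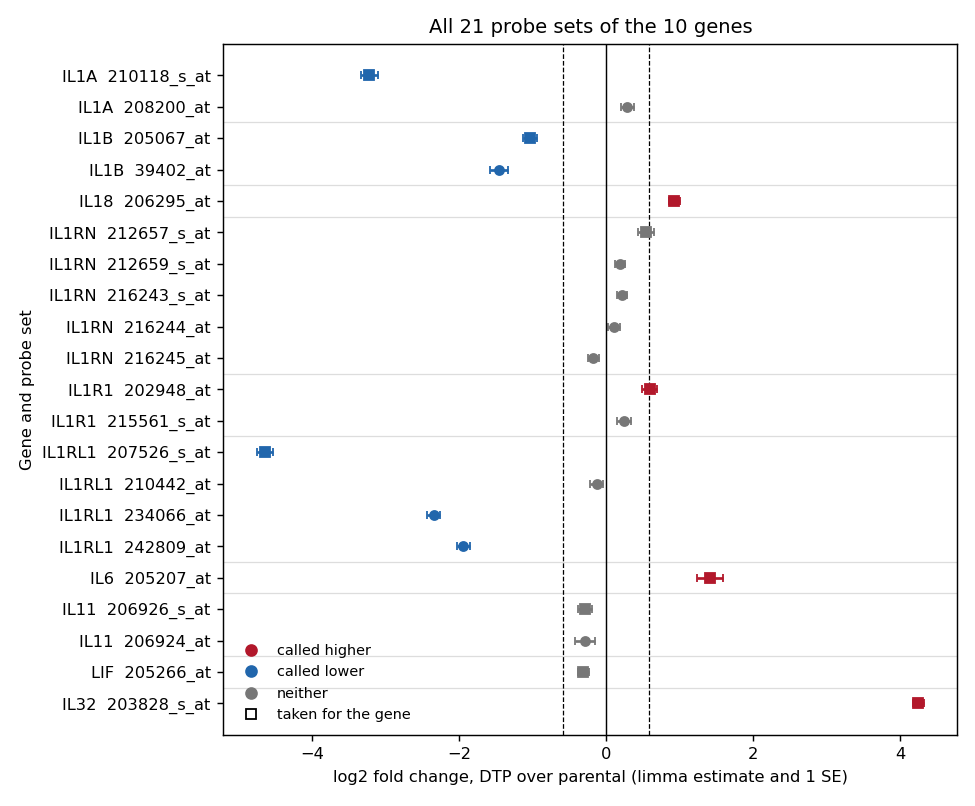
Difference of DTPs from parental cells (horizontal axis, log2 fold change) for each of the 21 probe sets of the 10 genes (vertical axis), with 1 SE from limma. Squares mark the probe set taken for the gene, colours mark the call over all probe sets, and dashed lines mark a 1.5-fold difference. The 4 probe sets of IL1RL1 run from -4.65 to -0.13, and those of IL1A lie on both sides of 0, at -3.22 and 0.29.

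Both interleukin-1 ligands were called lower, though the 2 probe sets of IL1A differed. IL1A had log2 values of 9.80, 10.01 and 9.83 in parental cultures and 6.44, 6.60 and 6.93 in DTPs. Every DTP array was under 7.29, the median over all probe sets, and every parental array well over it. The log2 fold change was -3.22 ± 0.11 (SE, limma adjusted p = 2.1e-10), 9.34-fold lower in DTPs. Since little target may be left in DTPs, this fold may understate the change. This probe set, 210118_s_at, and the other one, 208200_at, did not move together: 208200_at read 6.92, 7.21 and 6.87 in parental cultures and 7.21, 7.36 and 7.29 in DTPs, both means under the median of all probe sets, with a log2 fold change of 0.29 (limma adjusted p = 0.029 over probe sets, below the fold minimum). Within each array 208200_at minus 210118_s_at changed from -2.88 ± 0.08 to 0.63 ± 0.24 (SD, n = 3 each, exact permutation p = 0.10, the smallest possible). The reference sequence of 208200_at is a RefSeq transcript of IL1A, whereas that of 210118_s_at is not. Which of them reads IL1A better was not tested. The mean of both probe sets had a log2 fold change of -1.47 and was called lower.

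IL1B was read lower by both of its probe sets. With probe set 205067_at, parental cultures read 9.15, 9.22 and 9.33 and DTPs 8.34, 8.01 and 8.25, with no overlap. The fall was 2.05-fold (log2 fold change -1.04 ± 0.09 SE, limma adjusted p = 9.5e-07). Probe set 39402_at went from 8.57 ± 0.11 to 7.11 ± 0.28 (SD, n = 3 each), 2.75-fold lower. The DTP means, 8.20 for 205067_at and 7.11 for 39402_at, lay near or under the median of 8.04 of the 7 blood, glia and neuron genes. Both falls may therefore be understated.

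IL1A and IL1B are neighbours on the minus strand of chromosome 2 and both were called lower. The 250 bases before the start of each, the more upstream of 2 annotated starts for IL1A, are shown for that reason. They are chr2:112784494-112784743 for IL1A and chr2:112836780-112837029 for IL1B in GRCh38.p14, written 5′ to 3′ on the minus strand.
IL1A: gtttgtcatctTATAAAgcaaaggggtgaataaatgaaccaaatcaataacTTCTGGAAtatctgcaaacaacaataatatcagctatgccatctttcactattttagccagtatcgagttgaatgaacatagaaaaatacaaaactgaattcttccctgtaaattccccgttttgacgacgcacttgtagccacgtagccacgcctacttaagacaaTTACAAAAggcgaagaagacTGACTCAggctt
IL1B: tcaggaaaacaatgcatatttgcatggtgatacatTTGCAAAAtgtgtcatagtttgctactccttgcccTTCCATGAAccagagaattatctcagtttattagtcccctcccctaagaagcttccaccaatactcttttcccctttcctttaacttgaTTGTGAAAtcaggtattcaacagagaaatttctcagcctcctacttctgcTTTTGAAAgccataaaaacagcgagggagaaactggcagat
The IL1A window held an AP-1 match 12 to 6 bases before this start, a motif found in 4.2% of all windows, and none to NF-κB. Windows of IL1RN and IL11, both called neither, held AP-1 matches as well, and any part of this motif in the calls was not tested. The IL1B window held no AP-1 match, but 3 C/EBP matches and a STAT match 180 to 172 bases before the start (6.57% of all windows held the STAT motif). Both windows held the C/EBP motif, as did 33.2% of all windows, and no other of the 6 motifs was found in both.

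IL1RN encodes the antagonist that competes with both ligands. Parental and DTP arrays did not overlap: the log2 values were 7.26, 7.10 and 7.49 in parental cultures and 7.92, 7.68 and 7.87 in DTPs. It was 1.45-fold higher (log2 fold change 0.54 ± 0.10 SE, limma adjusted p = 6.6e-04), just under the fold minimum. The difference passed the minimum without parental replicate 3 (0.64) or DTP replicate 2 (0.61) and with each array centred on spike-ins (0.69) or on the genes of ribosomal proteins (0.65). All 5 of its probe sets were called neither, with log2 fold changes from -0.17 to 0.54, with 3 of the 5 below the median of all probe sets in both groups. Relative to IL1RN on the same array, the log2 value of IL1A fell by 3.76, from 2.60 ± 0.29 in parental cells to -1.17 ± 0.28 in DTPs (SD, n = 3 each). That of IL1B fell by 1.58, from 1.95 ± 0.15 to 0.38 ± 0.05. Only the change in these differences can be read, since probe sets differ in affinity, and for both the groups did not overlap (two-sided exact permutation p = 0.10, the smallest possible). With the mean of all probe sets the differences were -1.64 for IL1A and -1.42 for IL1B, and the change of IL1RN itself was 0.18. IL1RN in parental cells and IL1A in DTPs both had means under 7.29, so neither is shown to lie above background and the sizes of these differences are those of the scale alone.

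IL18, unlike IL1A and IL1B, rose. Its log2 values were 9.94, 9.86 and 9.78 in parental cultures and 10.82, 10.73 and 10.81 in DTPs, both groups well above the median of all probe sets. The rise was 1.90-fold (log2 fold change 0.92 ± 0.07 SE, limma adjusted p = 2.6e-07), from its 1 probe set. The SD was 0.08 in parental cells and 0.05 in DTPs, so the groups lay far outside each other's spread. CASP1, the protease that activates interleukin-18, was 1.62-fold higher (5.61 ± 0.18 to 6.31 ± 0.17, called higher), with both means under 7.29. Its call was lost with dim probe sets left out, with the mean of its probe sets and with the brightest of all probe sets.

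On chromosome 2 the genes of this family form a receptor cluster and a ligand cluster, and calls were not uniform along either. In the annotation's order the receptor cluster holds IL1R2, IL1R1, IL1RL2, IL1RL1, IL18R1 and IL18RAP. Of these 6 genes IL1R1 was called higher, IL1RL1 and IL18R1 lower, and 3 neither. IL18R1, which binds interleukin-18, fell 3.61-fold (log2 fold change -1.85 ± 0.11 SE, limma adjusted p = 2.6e-08). The ligand cluster runs from IL1A and IL1B through IL37, IL36G, IL36A, IL36B, IL36RN and IL1F10 to IL1RN. Of these 9 genes IL1A and IL1B, at one end, were called lower, and the other 7 were called neither.

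**Figure D3:**
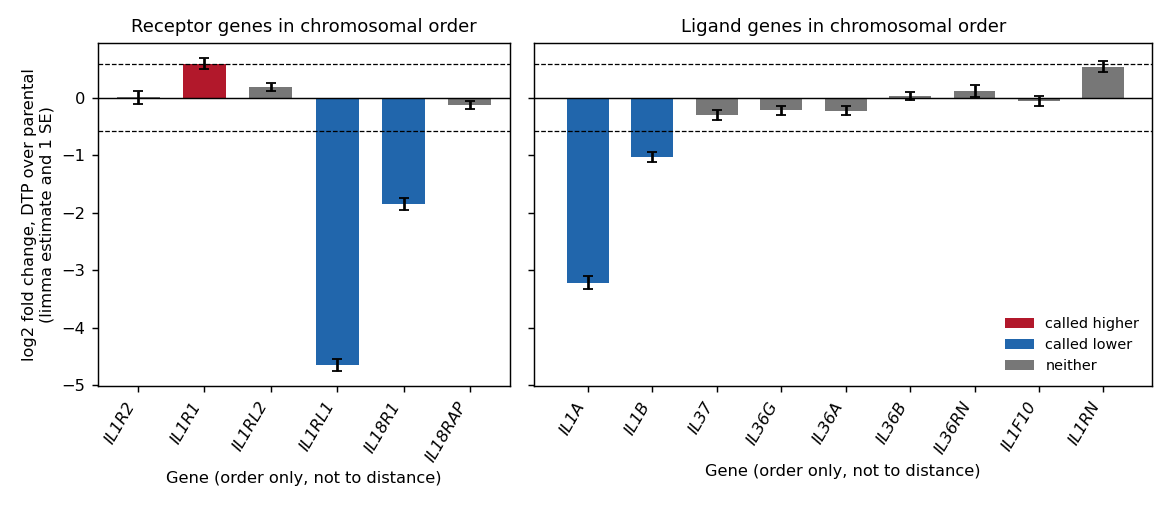
Difference of DTPs from parental cells (vertical axis, log2 fold change from limma with 1 SE) for the genes of the interleukin-1 receptor cluster (left) and ligand cluster (right) on chromosome 2, in the annotation's order and not to distance. Colours mark the call and dashed lines a 1.5-fold difference. The fall of IL1RL1 (-4.65) is followed by that of its neighbour IL18R1 (-1.85), while IL18RAP next to it had -0.13.

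Among the gp130 ligands, IL6 rose. Log2 values of 8.24, 8.25 and 8.36 in parental cultures stood against 10.23, 9.38 and 9.47 in DTPs. The parental mean of 8.28 was close to the median of 8.04 of the 7 blood, glia and neuron genes, so expression in parental cells is not shown. DTP replicate 1 stood above the other DTP arrays, and the SD of 0.47 in DTPs was the largest of the 10 genes. The rise was 2.66-fold (log2 fold change 1.41 ± 0.17 SE, limma adjusted p = 1.9e-05). Without DTP replicate 1 the log2 fold change was 1.14 and the call held.

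IL11 and LIF, which share gp130 with IL6, did not rise with it. IL11 read 8.54, 8.67 and 8.70 in parental cultures and 8.52, 8.30 and 8.21 in DTPs, so that DTP replicate 1 all but touched the lowest parental array. It was 1.22-fold lower (log2 fold change -0.29 ± 0.09 SE, limma adjusted p = 0.016), which is under the fold minimum. That p rose over 0.05 without parental replicate 3 (0.051), DTP replicate 2 (0.056) or DTP replicate 3 (0.069). It also did so with the most variable probe set (0.10) and with ribosomal (0.11) or spike-in centring (0.41). By the test that the methods name for other figures, and not for the arrays, the adjusted p of IL11 was 0.11. Its second probe set, 206924_at, gave -0.29 with overlapping groups (limma adjusted p = 0.13 over probe sets), and -0.10 without parental replicate 2. LIF read 10.58, 10.68 and 10.72 in parental cultures and 10.43, 10.24 and 10.37 in DTPs. It was 1.24-fold lower (-0.31 ± 0.07 SE, limma adjusted p = 0.0042) and also missed the minimum, with an adjusted p of 0.33 under spike-in centring.

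IL32, a cytokine outside these families that is found mainly in lymphocytes and stimulated epithelium, had the largest rise of the 10 genes and the fifteenth largest of all genes (rank 15). Its log2 values were 7.12, 7.07 and 7.26 in parental cultures and 11.35, 11.38 and 11.46 in DTPs. Parental arrays were all under the median over all probe sets and DTP arrays far over it, with an SD of 0.10 and 0.06. The log2 fold change was 4.25 ± 0.07 (SE, limma adjusted p = 6.1e-13), 19.0-fold higher in DTPs. Since the parental level is low, this fold too may understate the change. The gene has 1 probe set here, 203828_s_at.

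The 250 bases before the starts of IL32 and IL6, the genes with the largest rises, are shown for comparison, both on the plus strand of GRCh38.p14. They are chr16:3065153-3065402 for IL32, at the more upstream of 2 annotated starts, and chr7:22726950-22727199 for IL6.
IL32: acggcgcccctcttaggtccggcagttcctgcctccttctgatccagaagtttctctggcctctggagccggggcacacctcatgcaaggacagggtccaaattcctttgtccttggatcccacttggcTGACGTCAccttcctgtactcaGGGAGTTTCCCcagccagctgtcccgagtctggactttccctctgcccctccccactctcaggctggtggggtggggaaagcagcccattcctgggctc
IL6: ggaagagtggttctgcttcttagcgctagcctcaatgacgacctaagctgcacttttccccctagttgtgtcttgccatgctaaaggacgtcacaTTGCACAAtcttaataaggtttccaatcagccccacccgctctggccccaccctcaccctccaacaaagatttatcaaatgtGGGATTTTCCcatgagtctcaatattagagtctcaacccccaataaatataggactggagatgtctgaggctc
The IL32 window held overlapping NF-κB matches 99 to 89 bases before the start and a CRE match 121 to 114 bases before it. The IL6 window held an NF-κB match 73 to 64 bases before the start, GGGATTTTCC, and a C/EBP match 155 to 148 bases before it. The NF-κB motif was present in 5.21% of all windows and CRE in 1.65%. Of the 8 genes with a window (16 windows in all), IL32 and IL6 were the 2 that held the NF-κB motif. The window of the other IL32 start held none of the 6 motifs. Any part of a motif in these rises was not tested. No window was given for IL18 or LIF.

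By the smallest root mean square distance over the 6 arrays, with each gene centred on its parental mean, the profiles most like that of IL32 were those of LINC01279 (0.16), DKK1 (0.17) and TMEM45A (0.18). Those most like that of IL1RL1 were EGR1 (0.14), DUSP6 (0.19) and ABCG1 (0.31). With 2 groups such likeness mostly says that the fold changes are close.

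The rest of the pathway was read from 5 lists, of which 145 of 157 listed genes were measured. Of these, 14 were called higher, 11 lower and 120 neither, so that 25 or 17.2% were called, beside 14.2% of all genes (8.08% higher and 6.13% lower). By list, the share called ran from 9.43% of other interleukins and receptors to 30.8% of the signalling and NF-κB genes. Among 30 partners and processing factors of the interleukin-1 family, 3 were called higher, 2 lower and 25 neither, with a median log2 fold change of -0.08. The co-receptor IL1RAP rose 1.68-fold (log2 fold change 0.75 ± 0.07 SE, limma adjusted p = 1.7e-06), and the inflammasome adaptor PYCARD rose 1.69-fold, with CASP1 as the third. Besides IL18R1, HAX1, which binds the precursor of interleukin-1α, fell 1.97-fold. IL33, the ligand of IL1RL1, was looked up after its list had been read and stood at 3.76 ± 0.11 in parental cells and 3.72 ± 0.15 in DTPs, the lowest mean of its list (log2 fold change -0.04, limma adjusted p = 0.74).

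Of 26 measured genes of interleukin-1 signalling and NF-κB, 5 were called higher, 3 lower and 18 neither, with a median of 0.11. The adaptor MYD88 rose 3.53-fold (9.51 ± 0.15 to 11.33 ± 0.03, SD, n = 3 each, limma adjusted p = 1.8e-09). The NF-κB inhibitors TNFAIP3 and NFKBIA, which are also NF-κB targets, rose 3.23-fold and 2.12-fold, though with the mean of its probe sets NFKBIA had a log2 fold change of 0.48 in place of 1.09 and was not called. NFKBIE and NFKBIZ, both of the IκB family, were the other genes called higher (log2 fold changes 1.01 and 0.64). PELI2, an E3 ligase of this pathway, fell 2.72-fold, and IRAK2 (-0.99) and TAB2 (-0.74), which carry the signal on from the receptor, fell with it. The count of higher genes depended on the scale, with 9 under ribosomal and 11 under spike-in centring. It also depended on the rule for a gene's probe set, with 3 for the mean and 8 for the most variable, and was 12 with no fold minimum.

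Of 17 measured genes induced by interleukin-1, 2 were called higher, 1 lower and 14 neither. PTGS2, the inducible cyclooxygenase, rose most (log2 fold change 3.46 ± 0.14 SE, limma adjusted p = 7.7e-10), from a parental mean of 4.39 to 7.85 in DTPs. ICAM1, an adhesion molecule for leukocytes, rose 3.65-fold, whereas LCN2, which sequesters bacterial siderophores, fell 1.85-fold. CXCL8, the chemokine also named interleukin-8 and looked up for that name, was not called: it stood at 8.11 ± 0.13 in parental cells and 7.76 ± 0.51 in DTPs (limma adjusted p = 0.16).

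Of 19 measured ligands, receptors and signalling genes of the gp130 group, 3 were called higher, 1 lower and 15 neither, with a median of 0.03. STAT3 rose 2.40-fold (log2 fold change 1.26 ± 0.07 SE, limma adjusted p = 1.7e-08), SOCS2, a feedback inhibitor, 1.93-fold and PIAS3, an inhibitor of STAT3, 1.503-fold. SOCS3 and SOCS1 of the same family, named for comparison, were called neither (log2 fold changes -0.26 and 0.04). The oncostatin M receptor OSMR fell 1.86-fold. The call of PIAS3 (log2 fold change 0.59) lay as close to the fold minimum as that of IL1R1, and was lost without parental replicate 3 (0.52) or DTP replicate 3 (0.55), with array weights (0.56) and with cyclic loess (0.58).

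Other interleukins and their receptors were mostly dim, with both means of 27 of 53 under 7.29. Of the 53, 1 was called higher, 4 lower and 48 neither, with a median of -0.10. IL27RA rose 2.02-fold. The decoy receptor IL13RA2 fell 6.14-fold (8.41 ± 0.11 to 5.79 ± 0.13, SD, n = 3 each, limma adjusted p = 1.3e-10), IL20RA 4.46-fold, IL4R 1.97-fold and IL20RB 1.65-fold. With dim probe sets left out IL13RA2 dropped out, and 2 genes of the list were called lower.

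**Figure D4:**
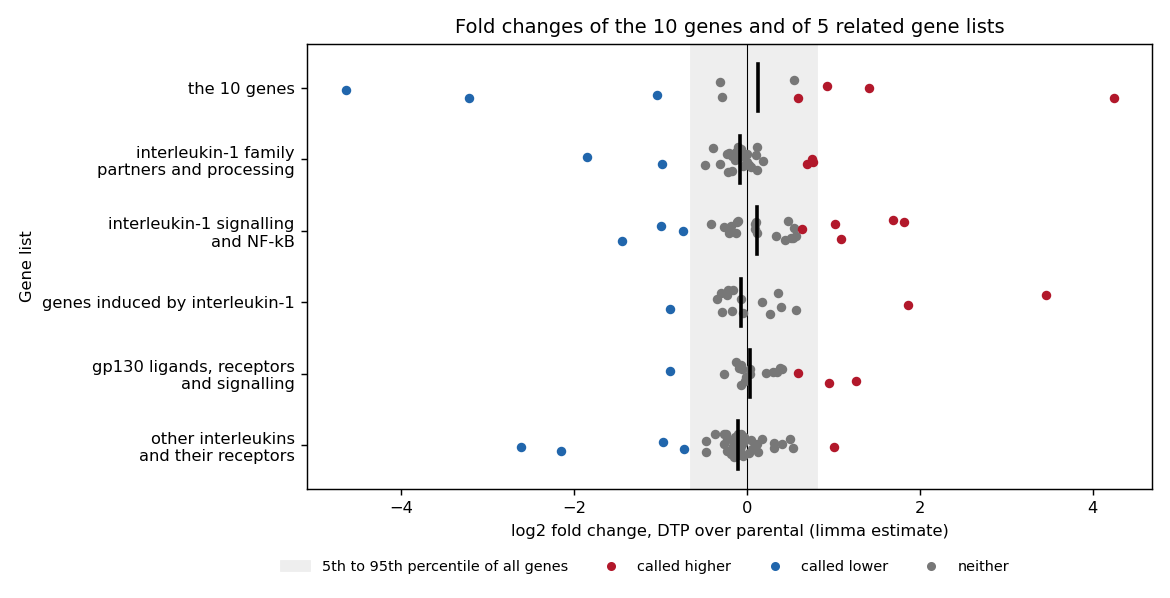
Difference of DTPs from parental cells (horizontal axis, log2 fold change from limma) for the 10 genes and for the measured genes of 5 related lists (vertical axis). Points are genes coloured by call, black bars are medians, and the grey band spans the 5th to the 95th percentile of all genes (-0.65 to 0.80). IL1RL1, IL1A and IL1B lie to the left of the band and IL18, IL6 and IL32 to the right, while the list medians lie between -0.10 and 0.12.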

How the data were processed

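mRNA of 3 parental and 3 DTP cultures was hybridized to 6 arrays. The authors deposited log2 probe set summaries made by RMA, as labels and methods give it, with the affy package and quantile normalization, versions not given in the sources used here. Quantile normalization hides changes of total mRNA, and RMA has no detection call. Array medians were 7.27 to 7.32, and the number of arrays limits the precision. The methods call replicates biological in general, without saying how the 3 arrays of a group relate to separate experiments. The p-values therefore rest on variation between these arrays and not between known separate experiments. In limma this variation is moderated by that of all genes.

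Of 54675 probe sets, 62 controls were left out, and 41091 of the remaining 54613 had exactly 1 gene symbol. Symbols were updated through gene IDs to RefSeq (GRCh38.p14), whose sequences are also those shown. Each gene was read by its brightest probe set (mean of the 6 arrays), without those ending in _x_at (probes that may bind other transcripts) where possible. The main test was limma's (lmFit, then eBayes, limma 3.58.1, R 4.3.3), two-sided and without covariates, run over genes and over probe sets, with Benjamini-Hochberg adjustment, and the test was checked on data made with known changes. Single differences were tested by exact permutation. The 10 genes and the lists were chosen with earlier results of these data known, so no list was tested. Named were all 10 genes, up to 4 called genes per list with the largest change, and the 3 profiles nearest to the largest rise and fall; other names are marked or complete a short count.

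GAPDH 3′ minus 5′ control probe sets ranged from -0.18 to -0.14 and those of β-actin from 0.03 to 0.19 (group means 0.17 in parental cells and 0.06 in DTPs, exact permutation p = 0.10, the smallest possible). Alternatives were a replicate block, leaving out arrays, other scalings, a filter on dim probe sets and other variance models. Further ones were Student's t-test, other thresholds and other rules for a gene's probe set. The methods name limma for the arrays and Student's t-test for other figures.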

Additional observations from a re-analysis of the deposited data

How the results depend on the processing

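Over 20 alternatives for each of the 10 genes (200 results), 186 kept their sign and their side of the thresholds, none changed sign, and IL1RL1, IL1A, IL1B, IL6 and IL32 kept their call under all 20. IL18 lost its call with a fold over 2. With that threshold 2 of the 10 genes were called higher, as were 2 of their probe sets, and with no fold minimum 5 genes were called lower and 7 probe sets higher. Leaving out 1 array gave 3 to 4 genes called higher and 3 lower. Of all genes, 1597 were called higher and 1212 lower; with a fold over 2 these were 679 and 431 (probe sets 1685 and 886), with no fold minimum 4043 and 4754 (probe sets 10155 and 10956), and with spike-in centring 795 genes and 1697 probe sets were lower, against 2690 probe sets before. Centring moved the median of all genes by 0.11 (ribosomal) and 0.15 (spike-in). In the 5 related lists together, 14 genes called higher became 23 with spike-in centring, 8 with a fold over 2 and 35 with no minimum, and 11 called lower became 4 and 31 with the last 2 settings. Counts of single lists moved with several settings: interleukin-1 induced genes called lower went from 1 to 2 without DTP replicate 1 and with the most variable probe set, and other interleukins called higher went from 1 to 3 with either centring. Relative to IL1RN, the change was -1.64 for IL1A and -1.42 for IL1B with the mean of probe sets. The sign of 210442_at of IL1RL1 became positive (0.017) with spike-in centring. The sign of IL33 became positive with ribosomal centring (0.066), spike-in centring (0.11) and cyclic loess (0.030), and without parental replicate 3 or DTP replicate 3, its log2 fold change ranging from -0.12 to 0.021 over the arrays left out. Replicate numbers did not pair the samples (deviations of same-numbered arrays correlated at -0.13, 0.08 and -0.05, and 2 of 6 correlated best with their own number). With a replicate block 1597 genes were called higher and 1212 lower, and no call of the 10 genes changed.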
